A study of Arabidopsis thaliana with 12 samples.

Results

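Among the 691 Arabidopsis thaliana genes that had an array probe assigned to that gene alone, 46 had a higher signal rank in every pair of high-CO2 samples than in every pair of normal-CO2 samples. The 46 genes were chosen from the measured values. The deposited intensities of each sample were turned into percentiles over all 3439 probes, from 0 for the dimmest to 100 for the brightest, with tied probes sharing their mean rank. Within each group, consecutive samples (1-2, 3-4 and 5-6) were averaged as pairs. A gene was kept if its lowest high-CO2 pair mean lay above its highest normal-CO2 pair mean and the group means differed by at least 5 percentile points. The criteria were met by 50 genes, 7.24% of the 691 (6.8% of all probes), and 4 of these are among 9 genes that the rule leaves out by name. The mirrored criteria, for genes lower in every high-CO2 pair, were met by 61 genes, 8.83%. Because the contrast between CO2 levels chose the 46 genes, their differences are given as a description with no test, and that they are positive in all pairs is not a finding.

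All 12 samples were total RNA of wild-type plants of the ecotype Columbia 0. The 6 high-CO2 samples were taken after 6 d of growth in 1% (v/v) CO2, and the 6 normal-CO2 samples, labelled 0 d, came from plants without that treatment, at the normal CO2 level. All high-CO2 samples are labelled 6 d and all normal-CO2 samples 0 d, so CO2 level and 6 d of growth cannot be told apart. Neither the organ nor the age at harvest is given in the labels, and less RNA per cell cannot be told apart from fewer cells of a type. The labels do not say whether a group's samples were separate plants or repeats.

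Carbon dioxide is the substrate that Rubisco fixes in the chloroplast. Raised CO2 favours carboxylation over oxygenation, lowers the need for photorespiration and commonly increases sugar supply in leaves. Chloroplasts and mitochondria have their own genomes, yet most of their proteins are encoded in the nucleus. These include the RNA-binding and transcription-related proteins that control expression of organelle genes, and several of the 46 genes belong to such families. The study that the labels cite dealt with nuclear genes for chloroplast proteins.

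The samples differed in ways that the 2 groups do not explain. Correlations of log2 intensity across probes ran from 0.924 to 0.982 within the 6 pairs. Those between pairs are not given here, so these values alone do not show that samples of a pair were more alike. In a fit that allowed for likeness within pairs, its estimated correlation beyond the group difference was 0.7853. Between 133 and 398 probes per sample were listed at 0, and the sample medians of intensity ran from 0.16 to 0.39 on a scale that ends just under 100. Percentiles do not depend on such a shift in scale. In both groups, samples 5 and 6 differed from the first 4, so each difference below was also taken in samples 1 to 4 and in samples 5 and 6 alone. Of 13 marker genes of green tissue, 5 had a single-gene probe, and 4 of these (LHB1B2, PSAN, PSBW and PRK) had group mean percentiles between 94.5 and 99.6. The other, SBPASE, averaged 70.8 ± 5.7 in high-CO2 and 83.0 ± 3.7 in normal-CO2 samples (SD, n = 6 each). Of the 5, limma, fitted to quantile-normalized log2 intensity of all probes with Benjamini-Hochberg adjustment, called SBPASE lower (log2 difference -0.78) and LHB1B2 higher (log2 difference 1.04) at high CO2 and did not call the other 3, so these markers moved both ways, and their part in the results was not tested. No marker of root (0 of 7), of flower and pollen (0 of 3) or of seed (0 of 4) had one, so the part of those tissues was not tested.

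Across the 46 genes the mean difference between high and normal CO2 had a median of 13.9 percentile points and ran from 5.03 points for AT5G53920 to 41.0 points for AT1G27610. Over all 691 genes the median difference was -0.158 points. In 12 of the 46 it was under 10 points. The gap between the lowest high-CO2 pair and the highest normal-CO2 pair was much narrower, with a median of 3.42 points and a range from 0.03 to 21.5 points. Samples of the same pair differed by a median of 3.5 points, close to the 3.56 points over all 691 genes. The gap was wider than the median within-pair difference of the gene in 24 of the 46 genes, and wider than its largest within-pair difference in 7. Without averaging pairs, the 2 groups of 6 samples were fully separated in 19 genes and overlapped in 27. That full separation was seen in 3.91% of the 691 genes.

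**Figure D1:**
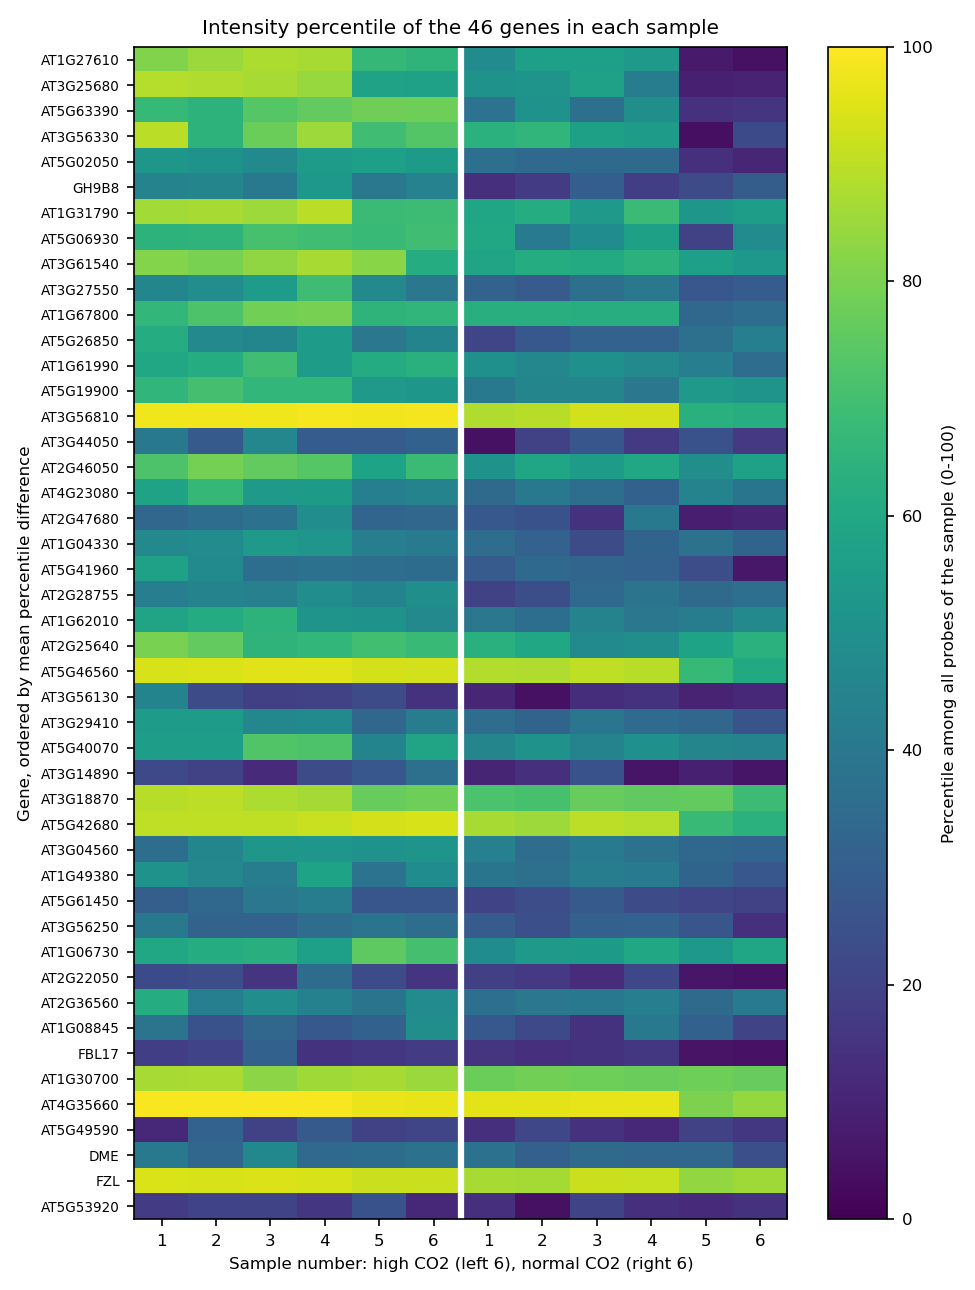
Percentile of each of the 46 genes (rows, ordered by mean difference) in the 6 high-CO2 samples (left) and the 6 normal-CO2 samples (right), with colour running from 0 to 100. The darkest cells of several upper rows are normal-CO2 samples 5 and 6, where AT1G27610 was at 7.2 and 4.3.

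On the log2 scale of quantile-normalized intensity, the differences had a median of 0.78 and ran from 0.28 (1.21-fold) for DME to 2.61 (6.08-fold) for AT3G56810. In 16 genes they were at least 1. Over the 668 of the 691 genes tested in the limma fit, the median was -0.00407. All 46 genes passed the filter on dim probes, and 27 were called higher over the 12 samples by limma with Benjamini-Hochberg adjustment over all probes. The background for that count is 5.52% of all 3349 probes tested, and 5.99% of the 668 genes. The rule and the fit used the same contrast, so nothing is read from the excess. Over pair means, 3 per group, limma called 0 of the 46 and 0 of all 3349 probes. In that limma fit 23 of the 46, and 408 of all probes, had an unadjusted p under 0.05. The rule separated these same pair means, so nothing is read from the 23. The SEs given below come from the fit over 12 samples, which treats them as independent. Samples of a pair had an estimated correlation of 0.7853, so these SEs are likely too small.

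The widest gap between pairs was that of AT5G63390, a member of the O-fucosyltransferase family, whose proteins are related to enzymes that add fucose in the secretory pathway. Its percentiles had a lowest value of 64.7, a median of 74.9 and a highest of 78.5 at high CO2, compared with 14.1, 37.5 and 51.0 at normal CO2. The groups did not overlap, and high-CO2 samples 5 and 6 were the highest of all while normal-CO2 samples 5 and 6 were the lowest. Deposited intensity averaged 0.578 ± 0.117 in high-CO2 and 0.11 ± 0.0468 in normal-CO2 samples (SD, n = 6 each), and the fitted difference was 3.94-fold (log2 1.98, SE 0.412). The difference was 26.5 percentile points in samples 1 to 4 and 63.6 points in samples 5 and 6.

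**Figure D2:**
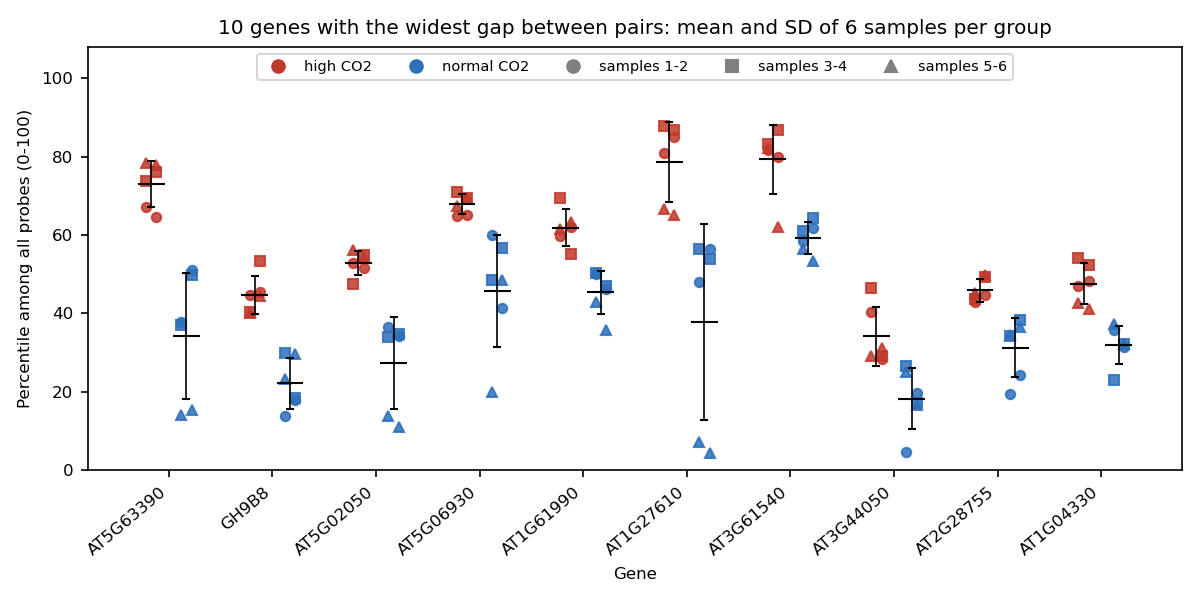
Percentile in each sample (symbols; red for high CO2, blue for normal CO2, shapes for the 3 pairs) for the 10 genes with the widest gap between pairs, with bars for the mean and SD of 6 samples. In AT5G63390, AT5G02050 and AT1G27610 normal-CO2 samples 5 and 6 (triangles) lie far below the other 4, and in AT3G61540 one high-CO2 triangle lies at 62.1, among the normal-CO2 values.

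Of the 46 genes, 9 belong to families that act in gene expression, mostly in organelles, and 6 of the 9 were among the 27 called by limma. The differences of the 9 genes had a median of 15.8 percentile points. Of all tested probes, 5.52% were called higher, but the same contrast chose the 46 genes. The share of such families among all measured genes is not given here. Nothing is therefore read from the number of genes, or of genes called, in this or any other group of roles below. The roles of genes known only by a locus identifier are general knowledge of Arabidopsis gene families and are not given in the annotation used.

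mTERF proteins are helical repeat proteins named after a mitochondrial transcription termination factor of animals. In plants they act in chloroplasts and mitochondria, where members affect transcription, splicing and organelle development. AT1G61990 had percentiles with a lowest value of 55.2, a median of 61.7 and a highest of 69.5 at high CO2, compared with 35.7, 46.6 and 50.3 at normal CO2, with no overlap. By pair it was at 60.8, 62.4 and 62.5 for high CO2, compared with 48.1, 48.6 and 39.3 at normal CO2, so the 3 high-CO2 pairs lay close together. The fitted difference was 1.63-fold (log2 0.70, SE 0.167). AT1G62010, of the same gene cluster with 1 protein-coding gene between them in the TAIR10.1 order, was at 59.9, 58.1 and 49.0 in high-CO2 pairs and at 37.8, 42.2 and 44.6 in normal-CO2 pairs. Its difference was 19.0 points in samples 1 to 4 and 4.42 points in samples 5 and 6, and single samples overlapped. Genes of this cluster are similar in sequence, so the signals of both probes may not be independent. AT3G18870 was at 89.7, 87.2 and 77.3 in high-CO2 pairs and at 71.3, 76.2 and 72.2 in normal-CO2 pairs. Its samples did not overlap, although the lowest high-CO2 sample exceeded the highest normal-CO2 sample only narrowly (76.8 against 76.7).

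The other mTERF genes measured had negative differences. From a list of 32 mTERF loci, written after the values of the 3 genes above had been seen, 7 had a single-gene probe. Limma over 12 samples called the 3 genes above higher and 1, AT1G79220, lower, where 5.52% of all tested probes were called higher and 6.96% lower. None of these calls remained over pair means or with pairs as a random block, where limma called 0 probes in either direction (408 and 511 had an unadjusted p under 0.05). AT1G79220 had pair means of 74.0, 75.3 and 81.3 at high CO2, compared with 88.6, 88.1 and 88.6 at normal CO2, a difference of -11.57 points with no overlap between pairs. AT3G46950 averaged 54.8 ± 9.3 in high-CO2 and 67.9 ± 6.2 in normal-CO2 samples (SD, n = 6 each), with all high-CO2 pairs below all normal-CO2 pairs. AT5G55580 and AT1G62150 had differences of -9.96 and -4.57 points with pairs that overlapped, and neither was called. The family as measured here thus split, with 3 genes higher and 4 lower in mean percentile at high CO2.

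**Figure D3:**
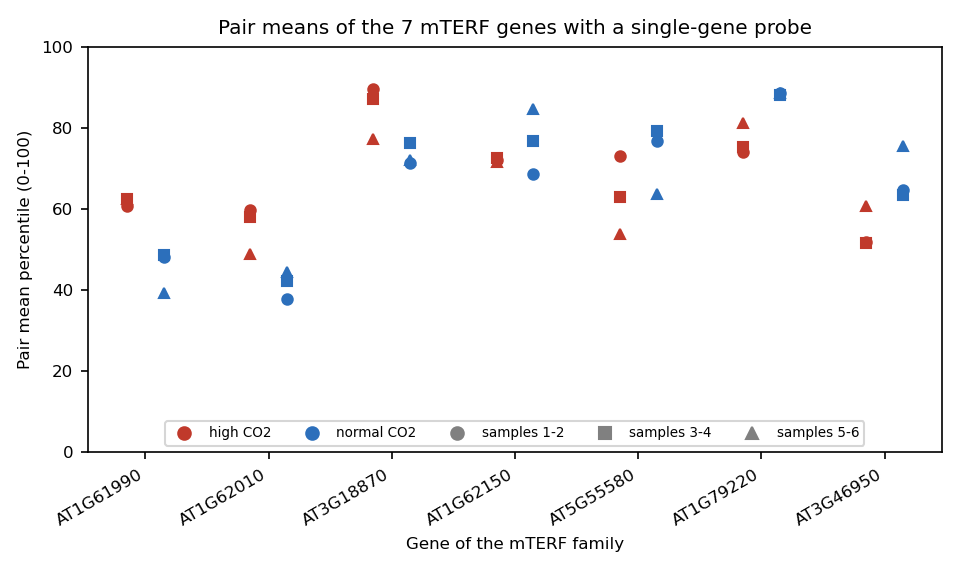
Pair mean percentiles (red for high CO2, blue for normal CO2, shapes for the 3 pairs) of the 7 mTERF genes with a single-gene probe, ordered by difference. The 3 genes at the left have all high-CO2 pairs above all normal-CO2 pairs, and AT1G79220 and AT3G46950 at the right have all high-CO2 pairs below.

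Pentatricopeptide repeat proteins bind organelle transcripts and take part in their editing, splicing, processing and stability. Both such members were among the 27 called, where 5.52% of all tested probes were called higher. Both were chosen by the same contrast. The other genes of this family on the array were not listed, so nothing is read about the family. AT1G31790 had percentiles with a lowest value of 68.0, a median of 85.8 and a highest of 89.8 at high CO2, compared with 52.9, 57.6 and 68.1 at normal CO2. High-CO2 samples 1 to 4 were all at 85.5 or above, while high-CO2 samples 5 and 6, at 68.0 and 68.4, met the highest normal-CO2 sample. Its fitted difference was 2.46-fold (log2 1.30, SE 0.292). AT2G46050 was at 75.6, 74.8 and 63.1 in high-CO2 pairs and at 55.0, 57.5 and 53.4 in normal-CO2 pairs, again with the third high-CO2 pair the lowest and with 1 high-CO2 sample among the normal-CO2 values.

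AT3G27550 encodes a protein with a CRM domain, an RNA-binding module found in splicing factors for group II introns of plant organelles. Its percentiles had a lowest value of 39.7, a median of 48.2 and a highest of 68.8 at high CO2, compared with 27.0, 30.6 and 40.2 at normal CO2. Only high-CO2 sample 6 fell below the highest normal-CO2 sample, and high-CO2 sample 4 was the highest. The fitted difference was 1.80-fold (log2 0.85, SE 0.219), with 20.3 percentile points in samples 1 to 4 and 15.34 points in samples 5 and 6.

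AT3G56330, of the family of enzymes that dimethylate a guanosine of tRNA, had the fourth largest mean difference, 31.81 points. Its percentiles had a lowest value of 64.7, a median of 75.3 and a highest of 89.6 at high CO2, compared with 4.2, 56.2 and 66.0 at normal CO2. Normal-CO2 samples 5 and 6 were at 4.2 and 22.3, far under the other 4, and high-CO2 sample 2 lay among the normal-CO2 values. The difference was 18.7 points without samples 5 and 6 and 58.03 points in those samples alone, and the gene was not among the 27 called by limma.

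The remaining genes of this kind had small differences. AT1G08845, of a ribosomal protein family, averaged 34.1 ± 8.9 in high-CO2 and 26.0 ± 9.1 in normal-CO2 samples, and AT5G53920, of a family that methylates a ribosomal protein, averaged 18.4 ± 4.8 and 13.4 ± 5.2 in the same order (percentiles, SD, n = 6 each). In both, single samples of the groups overlapped, within-pair differences reached 25.7 and 14.0 points, and neither was called.

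The genes for organelle membranes and metabolism numbered 5. AT5G02050, of the mitochondrial glycoprotein family related to yeast MAM33, a matrix protein, showed the third widest gap, 15.85 points. Its percentiles had a lowest value of 47.4, a median of 53.6 and a highest of 56.3 at high CO2, compared with 10.9, 34.1 and 36.5 at normal CO2. The high-CO2 samples lay close together and above every normal-CO2 sample, among which samples 5 and 6 were by far the lowest. The fitted difference was 2.62-fold (log2 1.39, SE 0.366), and it depends in part on a floor set on dim values, at which 1 normal-CO2 sample lay. In samples 1 to 4 alone the percentile difference was 16.81 points. Of 8 loci of this family 2 had a single-gene probe, and 1 of the 2 was called higher, where 5.52% of all tested probes were. AT4G31930, the other, averaged 67.8 ± 15.7 in high-CO2 and 72.5 ± 5.5 in normal-CO2 samples (SD, n = 6 each) and was not called.

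FZL, a dynamin-like GTPase of the chloroplast that shapes thylakoid membranes, was at 94.0, 94.3 and 91.9 in high-CO2 pairs and at 86.8, 91.9 and 84.8 in normal-CO2 pairs. Its gap of 0.03 points was the narrowest of the 46 genes. Near the top of the percentile scale small differences in rank correspond to large ones in intensity, and deposited intensity of FZL averaged 2.01 ± 0.379 in high-CO2 and 1.17 ± 0.359 in normal-CO2 samples (SD, n = 6 each). After median scaling, its log2 difference was 0.22 in place of 0.81.

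AT1G49380 encodes a thylakoid protein needed to attach haem to c-type cytochromes, such as cytochrome f. It averaged 47.3 ± 6.9 in high-CO2 and 36.5 ± 5.8 in normal-CO2 samples (percentiles, SD, n = 6 each), with an overlap between samples. CCB3, which acts in haem attachment to the cytochrome b6 subunit and was the other gene measured in a list of 7 for thylakoid cytochrome maturation that was also written after values had been seen, averaged 7.5 ± 7.4 in high-CO2 and 10.2 ± 10.1 in normal-CO2 samples, and neither was called. AT3G56130, of a biotin carboxyl carrier-like family whose members lack biotin and restrain the plastid acetyl-CoA carboxylase of fatty acid synthesis, was at 34.3, 19.3 and 19.0 in high-CO2 pairs and at 7.7, 14.0 and 10.7 in normal-CO2 pairs. High-CO2 sample 1, at 45.3, was far above the other 5. AT1G06730, a carbohydrate kinase of the pfkB type, averaged 64.5 ± 7.1 in high-CO2 and 55.0 ± 4.0 in normal-CO2 samples. In this gene the third high-CO2 pair was the highest, at 72.9.

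Nuclear functions were represented by 6 genes, whose differences had a median of 12.7 points. Limma called 2 of the 6, where 5.52% of all tested probes were called higher and the same contrast chose the genes. DME, or DEMETER, is a DNA glycosylase that removes methylated cytosine and is known for its part in imprinting in the endosperm. It averaged 37.9 ± 5.0 in high-CO2 and 32.3 ± 4.5 in normal-CO2 samples (percentiles, SD, n = 6 each). The samples overlapped, and the difference of 5.58 points was about the size of the spread between them. AT3G14890, an end-processing phosphatase of DNA repair that acts after such glycosylases, had a lowest percentile of 12.1, a median of 22.7 and a highest of 36.8 at high CO2, compared with 5.5, 9.5 and 25.1 at normal CO2. It was listed at 0 in 1 normal-CO2 sample and its groups overlapped. Of a list of 10 loci for DNA demethylation by base excision, written after the values had been seen, these 2 were the measured ones, and 0 were called by limma (adjusted over all probes).

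AT5G46560, which carries a domain named after the inner nuclear membrane proteins Man1 and Src1 of animals and yeast, had no overlap, with all high-CO2 samples between 93.3 and 95.4 and all normal-CO2 samples between 60.9 and 90.3. Deposited intensities were 2.32, 2.30, 2.61, 2.48, 1.92 and 1.88 in high-CO2 samples 1 to 6, against 1.04, 0.986, 1.34, 1.19, 0.453 and 0.363 in the normal-CO2 ones. Samples 5 and 6 were the lowest of both groups on that scale, which is not adjusted for differences in brightness between samples. The fitted difference was 2.76-fold (log2 1.47, SE 0.353). AT2G25640, of the transcription elongation factor S-II family, averaged 70.8 ± 5.9 in high-CO2 and 57.0 ± 6.9 in normal-CO2 samples (percentiles, SD, n = 6 each) with no overlap between samples. AT2G47680, a zinc finger helicase, averaged 36.8 ± 6.4 in high-CO2 and 21.1 ± 12.3 in normal-CO2 samples, and AT2G36560, with an AT-hook DNA-binding motif, averaged 47.5 ± 8.1 and 39.2 ± 3.0 in the same order. Both of the last genes overlapped between groups and were not called.

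Protein turnover and cell division accounted for 4 genes, 1 of them called, where 5.52% of all tested probes were called higher. AT3G44050 encodes a kinesin, a motor protein that moves along microtubules. Its percentiles had a lowest value of 28.4, a median of 30.2 and a highest of 46.4 at high CO2, compared with 4.6, 18.4 and 26.6 at normal CO2. The groups did not overlap, and the lowest sample, normal-CO2 sample 1, was listed at 0 in the deposited values. The fitted difference of 2.03-fold (log2 1.02, SE 0.268) therefore depends on the floor in 1 sample. FBL17, an F-box protein that promotes entry into DNA replication by directing the breakdown of cyclin-dependent kinase inhibitors, was at 19.2, 22.8 and 16.8 in high-CO2 pairs and at 14.2, 15.4 and 5.0 in normal-CO2 pairs, with overlapping samples. AT1G67800, a ubiquitin ligase with copine and RING domains, had percentiles with a lowest value of 64.9, a median of 69.2 and a highest of 79.3 at high CO2, compared with 33.4, 62.3 and 63.1 at normal CO2. Normal-CO2 samples 1 to 4 lay within 1 point of one another just under the high-CO2 values, and normal-CO2 samples 5 and 6 lay far lower. Accordingly its difference was 11.48 points in samples 1 to 4 and 30.7 points in samples 5 and 6. AT2G22050, a kelch repeat protein, averaged 22.3 ± 7.4 in high-CO2 and 13.5 ± 6.9 in normal-CO2 samples.

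The cell wall, secretion and specialised metabolism group had 6 genes including AT5G63390, and 5 of the 6 were among the 27 called. Of all tested probes 5.52% were called higher, and the same contrast chose these genes, so nothing is read from that count. GH9B8 belongs to the glycosyl hydrolase family of plant endoglucanases, enzymes that cut cellulose-like chains in cell walls. Its percentiles had a lowest value of 40.1, a median of 44.6 and a highest of 53.4 at high CO2, compared with 13.7, 20.8 and 29.8 at normal CO2. No samples overlapped, and unlike in AT5G63390 the difference was larger in samples 1 to 4 (26.06 points) than in samples 5 and 6 (15.91 points). The fitted difference was 2.47-fold (log2 1.31, SE 0.249). GH9B11, GH9B12 and GH9B16, measured genes with the same family symbol, had differences of -2.7, -1.85 and -12.96 percentile points, so the rise was not shared by them.

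AT3G61540, of the alpha/beta hydrolase superfamily, had percentiles with a lowest value of 62.1, a median of 81.9 and a highest of 86.8 at high CO2, compared with 53.3, 59.8 and 64.3 at normal CO2. Of its high-CO2 samples, 5 lay at 80.0 or above and sample 6 alone lay among the normal-CO2 values, far below its partner. The fitted difference was 2.15-fold (log2 1.11, SE 0.232). AT1G30700, of the berberine bridge enzyme-like oxidoreductases, averaged 85.7 ± 1.7 in high-CO2 and 77.8 ± 0.7 in normal-CO2 samples (percentiles, SD, n = 6 each) with no overlap, and its normal-CO2 SD was the smallest of the 46 genes. Its difference was 7.68 points in samples 1 to 4 and 8.46 points in samples 5 and 6, so that both sets of samples gave nearly the same value. AT4G23080, of a family with a neprosin-type domain, averaged 53.4 ± 8.7 in high-CO2 and 37.7 ± 4.8 in normal-CO2 samples, and AT3G29410, of the terpene synthase family, averaged 46.5 ± 8.4 and 33.6 ± 4.5 in the same order (percentiles, SD, n = 6 each). In both the third high-CO2 pair was the lowest, and in AT3G29410 it exceeded the highest normal-CO2 pair by 0.17 points.

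For 16 of the 46 genes no role is given here, and 10 of these were called. The share called higher over all tested probes was 5.52%, and the same contrast chose the 46 genes. AT1G27610 and AT3G25680 had the largest mean differences of all 46. In AT1G27610 the percentiles had a lowest value of 65.2, a median of 82.9 and a highest of 87.8 at high CO2, compared with 4.3, 51.0 and 56.5 at normal CO2, with no overlap. AT3G25680 had 57.1, 85.9 and 88.8 at high CO2 by the same measures, against 8.6, 46.8 and 57.4 at normal CO2. Its high-CO2 samples 5 and 6, at 57.5 and 57.1, met normal-CO2 sample 3. Both genes were low in samples 5 and 6 of both groups, and their normal-CO2 samples 5 and 6 lay at or under the floor of the log2 scale. In samples 1 to 4 the differences were 31.41 and 36.49 points for AT1G27610 and AT3G25680.

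AT3G56810 had the largest fold on the quantile-normalized scale over all 12 samples, with a log2 difference of 2.61. That difference was 1.9 after median scaling, 1.9 in samples 1 to 4 and 1.9 without normal-CO2 samples 5 and 6. Without high-CO2 samples 5 and 6 it was 2.6. After median scaling AT1G27610 had a larger log2 difference, 2.5. The deposited intensities of AT3G56810 were 4.79, 5.51, 4.98, 5.92, 5.24 and 5.94 in high-CO2 samples 1 to 6, against 0.98, 1.12, 1.90, 2.05, 0.391 and 0.379 in the normal-CO2 ones. The high-CO2 samples were nearly equal and far above all normal-CO2 samples, of which samples 5 and 6 were the lowest. On the percentile scale this appeared as 97.8, 98.2 and 98.0 in high-CO2 pairs against 88.6, 93.3 and 62.8 in normal-CO2 pairs. AT4G35660, also without overlap, had deposited intensities of 10.3, 10.7, 10.1, 9.65, 3.72 and 3.63 in the high-CO2 samples, against 3.01, 3.03, 3.38, 3.33, 0.782 and 0.942 in the normal-CO2 ones. Here high-CO2 samples 5 and 6 were close to normal-CO2 samples 1 to 4, also by percentile (96.9 and 96.7, against 96.0 to 96.3). The deposited intensities of both genes are given without further scaling, although sample medians ran from 0.16 to 0.39. AT5G42680 shared the low normal-CO2 samples 5 and 6, with pair means of 90.4, 91.1 and 93.8 at high CO2, compared with 86.1, 89.4 and 65.8 at normal CO2.

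AT5G06930, AT2G28755 and AT1G04330 were among the 10 genes with the widest gaps, and none of the 3 overlapped between groups. AT5G06930 had percentiles with a lowest value of 64.8, a median of 68.5 and a highest of 70.9 at high CO2, compared with 19.9, 48.5 and 59.9 at normal CO2. Its high-CO2 samples lay within a narrow band while normal-CO2 samples 5 and 6, at 19.9 and 48.4, were far from each other. AT2G28755 had 42.8, 44.8 and 49.9 at high CO2 by the same measures, against 19.5, 34.3 and 38.4 at normal CO2, where samples 1 and 2 were the lowest. AT1G04330 had 41.2, 47.7 and 54.2 at high CO2, compared with 23.1, 32.2 and 37.2 at normal CO2, and its difference was 19.87 points in samples 1 to 4 but 7.11 points in samples 5 and 6.

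The 8 others without a role had differences between 5.9 and 17.21 points. AT5G26850 and AT5G19900 had differences of 24.48 and 24.4 points in samples 1 to 4, and of 2.68 and 0.8 points in samples 5 and 6. In AT5G19900 high-CO2 samples 5 and 6 lay at 54.2 and 52.9, against 53.7 and 51.8 in normal-CO2 samples 5 and 6, so these pairs hardly differed. AT5G41960 and AT3G56250 averaged 41.7 ± 8.9 and 35.7 ± 3.6 at high CO2, compared with 26.2 ± 10.4 and 25.9 ± 6.5 at normal CO2, without overlap between samples, though in AT3G56250 both limits round to 31.3. The other 4, AT5G40070, AT3G04560, AT5G61450 and AT5G49590, overlapped between groups, with differences of 12.89, 10.9, 10.41 and 5.9 points. AT5G49590 had samples of 1 pair that were 19.9 points apart.

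The median difference over the 46 genes was 14.0 points in samples 1 to 4 and 13.6 points in samples 5 and 6 alone, but single genes differed between these sets. It was larger in samples 5 and 6 in 25 genes and larger in samples 1 to 4 in 21. The differences ran from 3.01 to 36.5 points in samples 1 to 4 and from 0.8 to 63.6 points in samples 5 and 6. The third high-CO2 pair was the lowest of the high-CO2 pairs in 32 of the 46 genes, and the third normal-CO2 pair was the lowest of the normal-CO2 pairs in 31. The same counts over all 691 genes are not given here. Normal-CO2 samples 5 and 6 averaged below normal-CO2 samples 1 to 4 in 34 of the 46, and in 366 of all 691 genes. The rule used these pair means, so nothing about the 46 genes is read from these counts. High-CO2 samples 5 and 6 against normal-CO2 samples 1 to 4 differed by a median of 8.03 points, from 0.68 to 34.4, while the median over all 691 genes was -0.52 points. The rule makes this difference positive in all 46 genes, so nothing is read from its sign or from the contrast with all genes. By samples 1 to 4 alone 177 genes met the criteria, 41 of them among the 46. With fewer pairs to separate, more genes can meet them by construction, and 83 genes did without samples 1 and 2 of both groups (44 among the 46) and 91 without samples 3 and 4 (45 among the 46). The 46 genes stay separated when whole pairs are left out and can fail only the 5-point limit. Their choice thus largely fixes the counts shared with the 46, which are not read as stability. When 1 high-CO2 pair was left out and all normal-CO2 pairs were kept, 128 genes met the criteria without samples 5 and 6, 55 without samples 1 and 2, and 54 without samples 3 and 4.

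**Figure D4:**
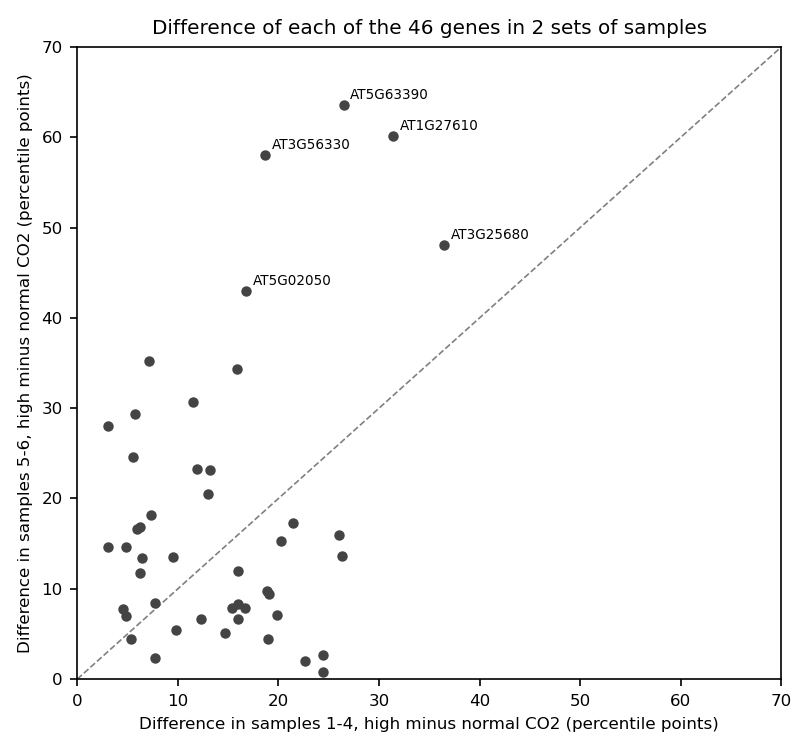
Difference between high and normal CO2 in percentile points for each of the 46 genes, in samples 1 to 4 (horizontal axis) and in samples 5 and 6 (vertical axis), with a dashed line where both are equal. The points form no single line: AT5G63390 reaches 63.6 points in samples 5 and 6 against 26.5 in samples 1 to 4, while other genes lie near 0 on the vertical axis with over 20 points on the horizontal one.

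Genes just inside and just outside the limits of the rule had similar values. The 3 genes just inside the 5-point limit were AT5G53920, FZL and DME, at 5.03, 5.56 and 5.58 points. The 3 just outside it with all pairs separated were AT3G57120, AT1G50880 and AT2G27630, at 4.96, 4.18 and 3.8 points. On separation, FZL, AT3G29410 and AT4G35660 had gaps of 0.03, 0.17 and 0.51 points, while AT5G65250, AT2G17670 and AT5G61470 missed it by gaps of -0.29, -0.36 and -0.49 points. AT2G17670 had a mean difference of 22.7 points, close to that of GH9B8 (22.68 points).

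Some of the 46 genes lay at the low end of the scale in some samples. No high-CO2 sample was listed at 0 for any of them, whereas AT3G44050, AT3G56130, AT3G14890 and AT5G53920 were listed at 0 in 1 normal-CO2 sample each. In 13 genes at least 1 normal-CO2 sample lay at or under the floor of the log2 scale, and in 3 at least 1 high-CO2 sample did, so their folds are understated or depend on the floor. The scaling also moved the folds: with intensities as deposited, where the median of all probes was higher by 0.449 at high CO2 on the log2 scale, the median log2 difference of the 46 genes was 1.468 in place of 0.78, and it was 0.89 after median scaling.

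By their locus identifiers, 11 of the 46 genes lie on chromosome 1, 7 on chromosome 2, 13 on chromosome 3, 2 on chromosome 4 and 13 on chromosome 5. Chromosome 4 holds 4.35% of the 46 and 17.4% of the 691 genes, and chromosome 3 holds 28.3% and 18.8%. In the gene order of TAIR10.1, AT3G56130, AT3G56250 and AT3G56330 are near one another, with 11 and 6 protein-coding genes between neighbours. AT3G56290, measured and lying between AT3G56250 and AT3G56330, had a difference of -8.69 points and is not among the 46. Neither the shares by chromosome nor the spacing was tested, and nothing is read from them.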

How the data were processed

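The deposited table holds intensities on a linear scale, as judged from its values, for 3439 probes in 12 samples (6 per group). The array type, background correction and normalization that the authors applied to these deposited intensities are not stated in the labels or the table. Groups and sample numbers came from the labels.

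Percentiles were computed per sample over all probes as (average rank - 1) / (n - 1) x 100 (scipy 1.17.1). Of the probes, 692 had 1 gene in the platform annotation of 2016, 870 had several and 1877 had none given, and the brightest probe of a gene was used. TAIR10.1 RefSeq entries existed for 690 of the 692 and were used for names and gene order. No sequences of probes, genes or proteins were used here.

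For the fit over all probes, intensities were quantile normalized with zeros kept at 0, raised to a common floor of 0.03975 (12.47% of values) and put on the log2 scale. The floor is the highest of the samples' 1st percentiles. limma 3.58.1 (R 4.3.3) was fitted with group as its only term to 3349 probes, leaving out 90 at the floor in every sample, with Benjamini-Hochberg adjustment at 0.05. Random blocks used statmod 1.5.0. The code of the fit and of the rule was run on simulated data with planted differences. Those simulated samples were independent, without the likeness within pairs seen here, so the runs checked the code only and say nothing about the results. Alternatives covered scaling, floor, dim probes, pairing, the percentile base and samples left out.

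All 46 genes are named. Those with the 10 widest gaps, and the 5 largest differences among the rest, have their lowest, median and highest sample. Members and gene lists were chosen with earlier results of these data known, and the mTERF, DNA demethylation, cytochrome and acetyl-CoA carboxylase lists after the values of the members had been seen. In the last list, AT3G56130 was the 1 measured of 7. Precision is limited by the number of arrays.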

Additional observations from a re-analysis of the deposited data

Results flagged for a closer look

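The 46 genes gave 92 groups of 6 samples. In 4 of these the lowest or highest sample was farther from its nearest neighbour, as a share of the whole range, than Dixon's 95% critical value. By chance about 1 in 20 groups of independent values would do so, and 4 of 92 is not above that rate. The likeness within pairs goes against independence. Nothing is read from the number flagged. All 4 were groups of high-CO2 samples. For AT3G61540, sample 6 lay at the percentile 62.1 while the other 5 ran from 80.0 to 86.8, a share of 0.726. For AT3G56130, sample 1 lay at 45.3 and the other 5 between 14.7 and 23.4, a share of 0.717. AT2G47680 reached 49.1 in sample 4 and 32.5 to 37.6 in the rest, a share of 0.694. FBL17 reached 31.1 in sample 3 and 14.6 to 20.0 in the rest, a share of 0.674. In each case the partner sample of the same pair lay among the others.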

How the results depend on the processing

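The count of genes that meet the rule was 46, and between 43 and 52 when single samples were left out. It was 112 with pairs 1-4, 2-5 and 3-6 (41 shared with the 46), 19 with no averaging, and 177 with samples 1 to 4 alone. Without normal-CO2 samples 5 and 6, an alternative chosen after seeing the data, it was 76 (40 shared), and without high-CO2 samples 5 and 6, chosen likewise, 128 (45 shared). Other pairs left out, also chosen after seeing the data, gave 83 without samples 1 and 2 and 91 without samples 3 and 4 of both groups, and 73 and 82 without those of normal CO2 alone. Without those of high CO2 alone the counts were 55 and 54. With whole pairs left out the 46 genes stay separated by construction, so the shared counts are largely fixed by their choice. The sign of the log2 and percentile differences of all 46 genes was kept under each alternative run for them, which the choice of genes largely fixes. The median log2 difference was 0.78, and 1.468 with intensities as deposited.

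Of all probes, 185 were higher and 233 lower (418 in all). As deposited they were 326 and 65, after median scaling 85 and 246. Samples 1 to 4 alone gave 608 and 662 (1270 in all), and leaving out high-CO2 samples 5 and 6 gave 431 and 469 (900 in all). Leaving out single samples moved the total between 230 and 580, the higher ones between 90 and 264 and the lower ones between 140 and 316, with the lowest values without high-CO2 sample 3 and the highest without high-CO2 sample 5. Both limma on pair means and limma with pairs as a random block gave 0 higher, 0 lower and 0 in all (408 and 511 at an unadjusted p under 0.05). Of the 46 genes, 27 were called, against 35 as deposited, 17 after median scaling and 18 with each sample's own floor. The cause of these changes was not tested. With the replicate number as a block, 222 were higher and 238 lower, 24 of the 46 genes were called and the median log2 difference stayed at 0.78. Deviations of same-numbered samples correlated between -0.0784 and 0.158, and 2 of 6 samples correlated best with their own number. The labels do not say whether the numbers pair samples of the 2 groups, and these values do not settle it.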

Other observations

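Probe numbers of some of the 46 genes were close. AT4G35660 and AT5G06930 have consecutive probe numbers, as do AT3G56130 and AT2G22050, and AT1G67800 and AT5G61450, and AT3G56250 and AT3G29410, have numbers 2 apart. Over all probes, the percentile difference between high and normal CO2 of a probe correlated with that of the next probe number at r = 0.187 (2558 pairs of probes), with r = 0.101 at a step of 10 (2523 pairs) and r = -0.0662 at a step of 100 (2454 pairs). These are correlations across probes of the same samples. Whether probe numbers follow positions on the array is not given in the sources used here, and their part in the results was not tested.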
